A study of Mus musculus with 12 samples.

Results

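Regulatory T cells (Tregs) were examined in mouse tumours grown from lines that the labels call SCC35. They were chosen from raw UMI (unique molecular identifier) counts, where a UMI stands for 1 captured transcript. A cell was taken as a Treg when it had at least 1 UMI of Cd3d, Cd3e or Cd3g, at least 1 UMI of Foxp3, and none of Cd8a, Cd8b1, C1qa, C1qb or C1qc. This gate held 331 of 116375 cells assigned to a sample, or 0.284%. Of these, 318 came from tumours of days 6, 10 and 16 of the 4 lines that were compared, 12 from tumours marked WT and 1 from day 0.

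Tregs are CD4 T cells whose development and suppressive programme depend on the transcription factor Foxp3. They restrain other T cells by taking up IL-2 through the high-affinity receptor chain CD25 (Il2ra), by CTLA-4 and by suppressive mediators. In tumours they are typically activated and carry costimulatory receptors of the TNF receptor family, and their balance with CD8 T cells is a common measure of the immune state of a tumour.

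The series follows melanoma rejection over time. Lines 15 and 18 are labelled as controls of a Mif knockout (KO), and lines 19 and 24 as Mif KO; Mif is the gene of the cytokine macrophage migration inhibitory factor, and the KO is a property of the implanted line, not of the host or its Tregs. Samples of days 0, 6, 10 and 16 were dissociated, marked with hashtag antibodies and sorted for live cells. They were read with the 10x Genomics 5′ kit in 6 libraries: 1 library per line and 2 libraries that mixed lines. The labels used here do not state the mouse strain, the hosts' age or whether a line is a single clone, and nothing in them says that each hashtag was a separate animal, so p-values measure the spread between hashtag-marked tumours of 4 lines.

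Of 176381 barcodes, 163866 passed the cell filter. Library totals ran from 151385933 to 239699029 gene UMIs. Mif in cells with no Ptprc UMI, outside the T-cell and macrophage gates, was 1690 to 2718 CPM (UMI counts scaled to a common library size) in the 18 control tumours and 74.7 to 1124 CPM in the 17 KO tumours of days 6 to 16, with no overlap. Of the barcode sequences that passed, 13716 (9.18%) occurred in more than 1 library, and no Treg barcode was a Treg in 2 or more libraries.

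The gate was then set against its markers. Most members carried little Foxp3: 221 had 1 Foxp3 UMI, 70 had 2, 26 had 3, and 14 had 4 or more. Il2ra, which the gate did not use, had a UMI in 46.2% of Tregs at a median of 1836 UMIs per cell. It had one in 15.9% of conventional CD4 T cells at a median of 1772 (Cd3 and Cd4 UMIs, no Foxp3, Cd8 or C1q UMI), in 7.93% of CD8 T cells at a median of 2275 (Cd3 and Cd8 UMIs, no Foxp3 or C1q UMI) and in 0.447% of macrophages at a median of 3391 (at least 3 C1q UMIs, no Cd3 UMI). With each cell thinned to 1000 UMIs, which kept 265 of the 318 Tregs and 806 of the 930 conventional CD4 T cells, the Il2ra shares were 28.7% and 7.57%. Cells just inside and just outside the Foxp3 threshold were also described. Il2ra was present in 44.3% of the 212 Tregs with 1 Foxp3 UMI, in 50% of the 106 with 2 or more, and in 9.70% of the 4948 CD8-negative T cells without Foxp3. Cd4 transcripts were sparse, with a UMI in 26.4% of Tregs against 1.85% of macrophages.

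Foxp3 UMIs were also found outside the gate. A Foxp3 UMI was present in 0.216% of macrophages and in 24 of 1839 CD8-positive T cells (1.31%, median 2302 UMIs), against 318 of 5266 CD8-negative T cells (6.04%). Over all assigned cells, 42 were left out of the gate only by a C1q UMI and 25 only by a Cd8 UMI. Without a Cd3 UMI there were 378 Foxp3-positive cells. The 24 CD8-positive T cells are among the 25, and the Foxp3-positive macrophages are among the 378. No doublet caller was run. Tregs with over 3 times the median UMI count of the T cells of their library, which are likely to include doublets, numbered 76 (23.0%), against 18.5% of conventional CD4 and 19.2% of CD8 T cells. At day 0 there was 1 Treg among 5769 assigned cells and 38 T cells, and 20 cells had a Foxp3 UMI. The 1 Treg is 0.0173% of cells (95% exact interval 0.000439% to 0.0965%, counting error only). These T cells all lacked a Cd8 UMI and lay mostly in KO lines. Line 24 had 27 in sample B (1.26% of its cells) and 4 in A, and line 19 had 5 in B and 1 in A. Control line 15 had 1 in B and 0 in A, and control line 18 had 0. Their part in the later shares was not tested.

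The first comparison asked whether Tregs made up a different part of the T cells in Mif KO tumours. They did: Tregs were a smaller share of CD8-negative T cells (Cd3 UMIs, no Cd8 or C1q UMI) in KO than in control tumours. Over days 6 to 16 the share was 12.2% ± 6.45 (SD, n = 16) in controls and 5.58% ± 3.11 (SD, n = 17) in KO tumours, in tumours with at least 20 such cells. The difference was -6.63 percentage points (two-sided permutation test within day, 100000 resamples, p = 0.00019). Tumours marked WT, in no group and in no comparison, were at 4.65%, 1.63% and 4.51% on days 6, 10 and 16.

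The gap was widest on day 16. In line 15 the Treg share of CD8-negative T cells was 20.2%, 13.04% and 23.5% in the 3 tumours, and in line 18 it was 19.8%, 16.03% and 16.5%. In KO line 19 it was 15.4%, 3.10% and 7.48%, and in KO line 24 it was 4.35%, 1.48% and 4.10%. Of the 6 KO tumours, 5 lay below every control tumour, and the exception was 1 line 19 tumour with 8 Tregs among 52 CD8-negative T cells. The means were 18.2% ± 3.71 (SD, n = 6) and 5.98% ± 5.01 (SD, n = 6), with an exact two-sided permutation p of 0.00433 and 0.0195 after Benjamini-Hochberg adjustment over the 9 daily comparisons of this and the next 2 measures.

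On day 6 the share was 4.08% to 15.4% in controls (median 6.67%, n = 5) and 4.27% to 5.26% in KO tumours (median 4.64%, n = 5). On day 10 it was 0.885% to 16.3% (median 10.1%, n = 5) against 3.75% to 9.78% (median 5.44%, n = 6). The groups overlapped on both days, and the exact permutation p was 0.127 and 0.156. Line means over all days were 14% for line 15, 10.4% for line 18, 6.15% for line 19 and 4.93% for line 24. Over these 4 means the exact permutation p was 0.333, the smallest possible.

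**Figure D1:**
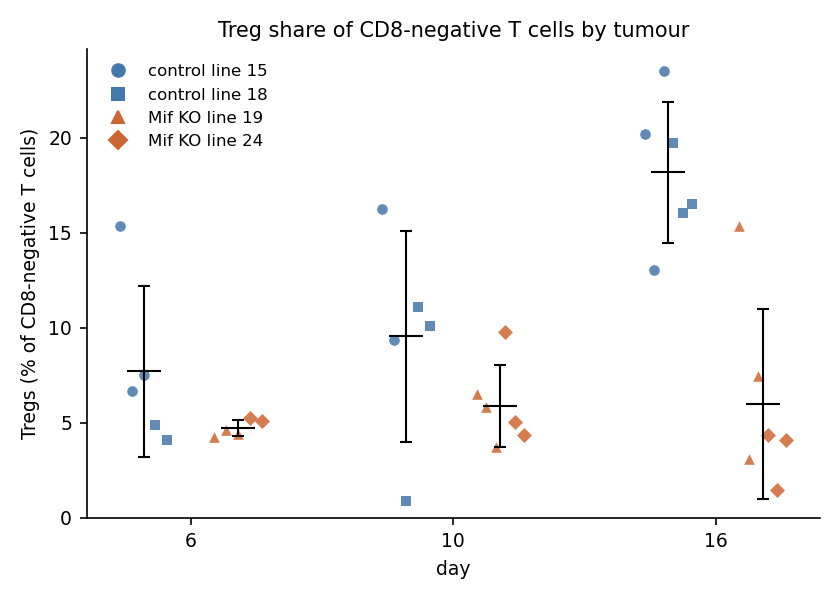
Tregs as a percentage of CD8-negative T cells (vertical axis) by day (horizontal axis), 1 point per tumour with at least 20 such cells, with marker shape for the line, horizontal bars at the mean and error bars of 1 SD. The 6 control tumours of day 16 sit between 13.04% and 23.5%, and 5 of the 6 KO tumours sit at 7.48% or less.

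On day 6, CD8-negative T cells had a median of 2922.5 UMIs in control and 2133.5 in KO tumours. On day 10 the medians were 2497 and 1583. On day 16 they were 2023 and 2035. Fewer Tregs and less Foxp3 RNA per Treg cannot be told apart where most members have 1 Foxp3 UMI. Foxp3 in CD8-positive T cells of that day was at 4 of 104 cells (3.85%) in controls and 13 of 927 (1.40%) in KO tumours, and in macrophages at 0.278% and 0.0459%. Gating on cells thinned to 1000 UMIs left a difference in the Treg share over all days of -4.85 points (permutation p = 0.00324), and requiring 2 Foxp3 UMIs left -3.88 points (permutation p = 0.00014). Within the mixed libraries alone the difference was -6.99 points (permutation p = 0.0275). Lines 15 and 19 were in 1 of these libraries and line 24 in the other, and the test did not hold library fixed. Among CD8-negative T cells with a Cd4 UMI, an alternative chosen after seeing the data, the difference was -12.6 points (permutation p = 0.00864).

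The smaller share stood beside a larger denominator. CD8-negative T cells were 2.21% ± 0.901 of assigned cells in controls (SD, n = 18) and 7.63% ± 4.35 in KO tumours (SD, n = 17). This denominator is not a count of CD4 T cells. Among its cells without Foxp3, 18.8% had a Cd4 UMI and 52.6% a Ptprc UMI. It can also hold CD8 T cells with no Cd8 UMI captured. CD8 T cells averaged 0.456% of assigned cells in control and 4.34% in KO tumours on day 16. Their part in the denominator was not tested. As a share of all assigned cells Tregs were 0.267% in controls and 0.388% in KO tumours, and this difference of 0.121 points did not pass the permutation test (p = 0.102). By day, the Treg share of all cells was 0.131% ± 0.0887 (n = 6) against 0.258% ± 0.148 (n = 5) on day 6, 0.247% ± 0.217 (n = 6) against 0.561% ± 0.302 (n = 6) on day 10, and 0.424% ± 0.199 (n = 6) against 0.324% ± 0.148 (n = 6) on day 16. The sign of the means thus differed between day 16 and the earlier days, and each day's exact permutation p was 0.0649 or more. Without control line 15 the difference over all days was 0.185 points (permutation p = 0.0352), and without KO line 19 it was 0.229 points (permutation p = 0.0267).

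CD8 T cells outnumbered Tregs far more in KO than in control tumours on day 16. Pooled over tumours there were 1.11 CD8 T cells per Treg in controls (100 against 90 cells) and 17.6 in KO tumours (914 against 52 cells). The ratio was 0.750 in line 15 and 1.35 in line 18, against 4.29 in line 19 and 29.0 in line 24. The log2 ratio of Tregs to CD8 T cells, with 0.5 added to each count, was -0.74 to 0.56 in the 6 control tumours and -5.41 to -0.67 in the 6 KO tumours of day 16. The ranges overlapped through 1 line 19 tumour, and the means were -0.10 ± 0.55 and -3.21 ± 1.77 (SD, exact permutation p = 0.00433, adjusted p over the 9 comparisons 0.0195). The WT tumour of day 16, in no group and in no comparison, was at -4.48.

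On days 6 and 10 the log2 ratio did not separate the groups, with means of -1.82 and -2.46 on day 6 (n = 5 and 5, exact permutation p = 0.182) and of -1.69 and -1.77 on day 10 (n = 5 and 6, exact permutation p = 0.961). Over all days the difference was -1.35 (permutation p = 0.015). It was -0.998 (permutation p = 0.139) without control line 15 and -0.96 (permutation p = 0.0967) without KO line 24, so the pooled call rests on both of these lines.

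**Figure D2:**
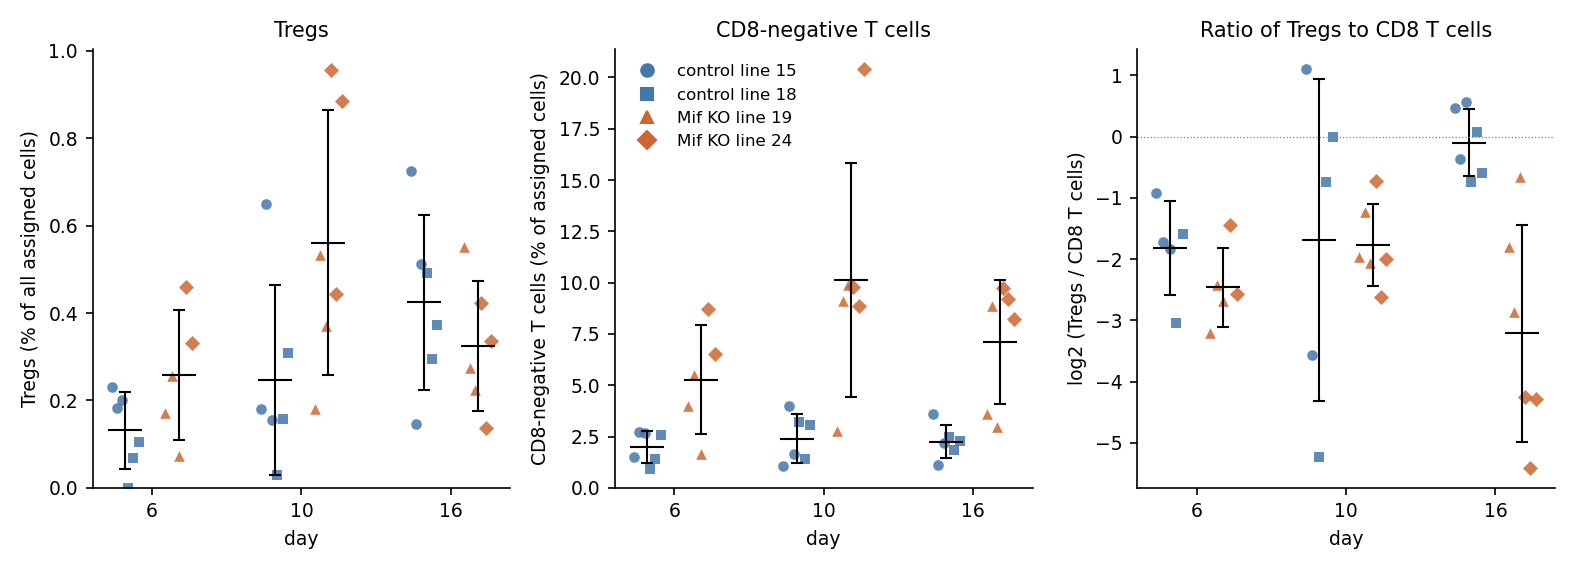
Tregs as a percentage of all assigned cells (left), CD8-negative T cells as a percentage of all assigned cells (middle) and the log2 ratio of Tregs to CD8 T cells (right, dotted line at equal numbers) by day, 1 point per tumour, with bars at the mean and error bars of 1 SD. The mean percentage of CD8-negative T cells is higher in KO tumours on each day, and on day 16 the mean log2 ratio is -3.21 in KO tumours and -0.10 in controls.

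The Treg share of CD8-negative T cells was higher on day 16 than on day 6 over all tumours, and its change differed between the groups. Over both groups it was 6.22% ± 3.40 on day 6 (SD, n = 10) and 12.1% ± 7.63 on day 16 (SD, n = 12), a difference of 5.86 points (permutation test within line, p = 0.012). From day 10 to day 16 the mean moved by 8.62 points in controls and by 0.109 points in KO tumours, and the difference between these changes was -8.51 points (exact permutation of days within each group, p = 0.0447). This permutation assumes that neither group changes with day. Pooled over the tumours of a line, the share on days 6, 10 and 16 was 9.01%, 13.8% and 20.2% in line 15 and 3.81%, 5.88% and 17.1% in line 18. It was 4.50%, 4.69% and 5.76% in line 19 and 5.14%, 5.32% and 2.53% in line 24, so in line 24 the value of day 16 was the lowest. The difference over both groups did not pass the test without control line 15 (3.43 points from day 10, since day 6 then had too few tumours, permutation p = 0.144), without control line 18 (3.64 points, permutation p = 0.145) or without KO line 19 (4.86 points from day 10, permutation p = 0.0584).

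Next, gene expression in Tregs was set against conventional CD4 T cells of the same tumours, summing UMIs per tumour and gate in the 11 tumours (3 control, 8 KO) with at least 10 cells of both. Tregs carried more Il2ra, Ikzf2, Ctla4, Gzmb and several costimulatory receptors. Of 976 genes tested, 24 (2.46%) passed an adjusted p of 0.05 in edgeR's quasi-likelihood test with Benjamini-Hochberg adjustment, 17 (1.74%) higher and 7 (0.717%) lower in Tregs. Genes of the gates were left out of these fits.

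Treg identity genes led the comparison. Il2ra, the CD25 chain, was at 155 to 576 CPM in Tregs (median 250) and at 0 to 125 CPM in conventional CD4 T cells (median 42.6). The Treg values lay above the CD4 values in all 11 tumours, with no overlap at all, and the log2 difference was 2.25 (SE 0.31, edgeR adjusted p = 0.000663). Ikzf2, which encodes the transcription factor Helios, was at 196 to 612 CPM (median 313) against 33.3 to 271 CPM (median 56.4). It was higher in Tregs in 11 of 11 tumours, with a log2 difference of 2.20 (SE 0.26, edgeR adjusted p = 0.000185). Ctla4, the inhibitory receptor of CD80 and CD86, was at 252 to 842 CPM (median 547) against 66.5 to 496 CPM (median 219) and was higher in 10 of 11 tumours (log2 difference 1.23, SE 0.24, edgeR adjusted p = 0.00861).

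Among the 16 listed identity genes, 9 were tested, 4 were higher in Tregs (Il2ra, Ikzf2, Ctla4 and Tnfrsf4) and none was lower. Over all genes tested 1.74% were higher and 0.717% lower. The median log2 difference of the 9 identity genes was 0.66, against 0.01 over all genes tested. Il2ra and Ikzf2 passed the count filter through their Treg sums, and a listed gene low in both gates was not tested. Tnfrsf18, which encodes GITR, was at a median of 519 CPM in Tregs and 303 CPM in conventional CD4 T cells, with a log2 difference of 0.66 and an edgeR adjusted p of 0.0502. Capg, an actin-capping protein, differed by 0.31, Cd5 by -0.03, Il2rb by -0.01 and Rgs1 by -0.28 on the log2 scale, and none of them passed.

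Costimulatory receptors were higher as well. Of 10 listed, 5 were tested and 4 rose (Tnfrsf9, Tnfrsf4, Icos and Cd2), against 1.74% of all genes, with a median log2 difference of 0.92. The call was lost in 10 of 13 alternatives for Cd2, in 8 for Icos and in 6 for Tnfrsf4, and in none for Tnfrsf9. Tnfrsf9, which encodes 4-1BB, was at 403 to 1043 CPM in Tregs (median 664) and 146 to 480 CPM in conventional CD4 T cells (median 282), a log2 difference of 1.36 (SE 0.20, edgeR adjusted p = 0.00119). Tnfrsf4, which encodes OX40, had medians of 998 and 353 CPM, and Icos had medians of 544 and 294 CPM, with log2 differences of 0.92 and 1.02. Among 18 genes of tissue and effector Tregs, 6 were tested and 4 rose: Tnfrsf9, Icos, Maf (0.98), a transcription factor, and Hopx (0.75). The call was lost in 6 of 12 alternatives for Maf and in 8 of 12 for Hopx. Ccr8, a chemokine receptor of tumour Tregs, had medians of 166 and 113 CPM and a log2 difference of 0.43 (edgeR adjusted p = 0.804).

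Of 12 listed suppressive molecules, 4 were tested and 3 rose, against 1.74% of all genes. Gzmb, a granule protease, had the highest fold of all called genes, at 140 to 1510 CPM in Tregs (median 740) against 14.1 to 776 CPM (median 160). It was higher in all 11 tumours, although the ranges overlapped (log2 difference 2.30, SE 0.38, edgeR adjusted p = 0.00239). Areg, an epidermal growth factor receptor ligand made by tissue Tregs, was higher in 9 of 11 tumours, with medians of 383 and 126 CPM (1.31), and its call was lost in 4 of 11 alternatives. Ctla4 was the third, and Tgfb1 did not pass. Il10 was too low to be tested and had a UMI in 5.35% of Tregs, 1.18% of conventional CD4 T cells and 3.22% of macrophages. Nkg7, a protein of cytotoxic granules, was at medians of 167 CPM in Tregs and 434 CPM in conventional CD4 T cells (log2 difference -1.07, edgeR adjusted p = 0.165).

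The 7 lower genes included Bcl2a1d, an anti-apoptotic Bcl-2 relative (log2 difference -1.43), Ms4a4b (-1.29), Cd82 (-1.10), a tetraspanin, and Cd52 (-0.84). Cd82 was lower in Tregs in 11 of 11 tumours, with medians of 165 and 319 CPM. Ostf1 (-0.97), Lars2 (-0.64) and Sh3bgrl3 (-0.55) made up the rest. Of 13 alternatives, the call was lost in 8 for Lars2, in 7 for Sh3bgrl3 and in 5 each for Cd52 and Ms4a4b. Of 12, it was lost in 4 for Bcl2a1d and in 3 each for Cd82 and Ostf1. With Ptprc required and no macrophage UMIs, 1 gene was called lower. Glrx, glutaredoxin, was higher in 11 of 11 tumours (1.22). Resting and lymph node genes were near the limit of these counts: of 10 listed only Klf2 was tested, with a log2 difference of -0.18 and no call.

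Cd74, the invariant chain of MHC class II, was also higher in Tregs (medians 468 and 209 CPM, higher in 10 of 11 tumours, log2 difference 1.58, SE 0.38, edgeR adjusted p = 0.0342). The call was lost in 8 of 13 alternatives (highest edgeR adjusted p 0.888). Cd74 is a member of the list of antigen-presenting cell markers. In Tregs that list of 7 genes summed to 106 to 1491 CPM in the 5 control tumours with at least 10 Tregs, with 4 of 7 genes detected, and to 200 to 6525 CPM in 8 KO tumours, with 5 of 7 detected. Xcr1 and Clec9a, markers of a subset of conventional dendritic cells, were at 0 in both groups. Cd209a was at 0 in controls only, and Flt3, another dendritic cell marker, was detected in both groups. In conventional CD4 T cells the median sum of the list was 76.5 CPM in 5 control and 397 CPM in 16 KO tumours. In Tregs it was 405 and 1154 CPM. These sums include Cd74 itself. H2-Aa, a class II chain, had a UMI in 7.86% of Tregs and 9.68% of conventional CD4 T cells (6.79% and 6.33% after thinning), and Lyz2, a myeloid marker, in 9.12% and 9.03%, against 86.5% of macrophages. The 8 macrophage and monocyte markers summed to 106 to 496 CPM in control and 0 to 800 CPM in KO Tregs. The part of other cells in the Cd74 difference was not tested.

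Transcripts of the line and stroma were present in every T-cell gate. Sparc, a matrix protein, had a UMI in 44.0% of Tregs and 45.5% of conventional CD4 T cells. The shares were 47.3% in CD8 T cells and 50.3% in macrophages. The source of these transcripts was not tested. The 8 line and stroma markers summed to 571 to 6174 CPM in Tregs. B-cell, neutrophil and NK-cell markers summed to at most 35.2, 20.3 and 95.5 CPM, and all 5 NK markers were at 0 in control Tregs.

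The calls against conventional CD4 T cells depended on the tumours used. They numbered 9 without control line 15 and 3 without KO line 19 (Ikzf2, Gzmb and Tnfrsf9). When Ptprc was required and macrophage UMIs were excluded, 10 genes passed in 4 tumours. Ikzf2, Tnfrsf9 and Gzmb stayed past the threshold in all 13 alternatives. Il2ra did so in the 8 of 13 that tested it.

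Against CD8 T cells the difference was broader. In the 12 tumours (4 control, 8 KO) with at least 10 cells of both gates, 170 of 1252 genes (13.6%) passed in edgeR, 69 (5.51%) higher and 101 (8.07%) lower in Tregs. Requiring Ptprc and no macrophage UMIs left 62 calls in 4 tumours, and leaving out KO line 24 left 102.

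Treg identity genes were again higher. Tnfrsf4 was at 434 to 1307 CPM in Tregs (median 965) and at 0 to 127 CPM in CD8 T cells (median 52.3), with no overlap (log2 difference 3.92, SE 0.27, edgeR adjusted p = 1.29e-09). Il2ra was at 150 to 591 CPM against 0 to 39.9 CPM (3.85), Maf at 135 to 422 CPM against 0 to 32.2 CPM (3.69), and Ctla4 at 259 to 824 CPM against 21.3 to 145 CPM (3.11). Each of these lay higher in 12 of 12 tumours with no overlap of the ranges. Il2ra and Maf passed the count filter through their Treg sums alone. A listed gene low in both gates was not tested. Of 9 identity genes tested 7 rose and none fell, with a median log2 difference of 1.94, against 0.02 over all genes tested. Over all genes tested 5.51% were higher and 8.07% lower. Il2rb, the shared IL-2 and IL-15 receptor chain (0.11), and Rgs1 (0.08) did not pass.

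All 5 tested costimulatory receptors, all 5 tested tissue and effector genes, all 3 tested suppressive molecules and both tested inhibitory receptors (Ctla4 and Tigit) were higher in Tregs than in CD8 T cells, against 5.51% of all genes. Tnfrsf18 was at 304 to 808 CPM against 25.4 to 210 CPM (2.35) and Icos had medians of 530.2 and 118 CPM (2.35). Ikzf2 had medians of 294 and 65.0 CPM (1.94) and Tnfrsf9 of 693 and 175 CPM (1.84). Areg was higher in 12 of 12 tumours (1.59), and Tigit in 11 of 12 (1.26). Arl5a, a small GTPase, was the remaining gene among the 8 highest folds (2.48). It was at 125 to 387 CPM in Tregs and 17.5 to 44.1 CPM in CD8 T cells. Like Il2ra and Maf, it passed the count filter through its Treg sums alone.

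Of 9 listed cytotoxic granule genes 2 were tested, and they differed in opposite directions. In Tregs 1 was higher and 1 lower, against 5.51% and 8.07% of all genes. Nkg7 was at a median of 153 CPM in Tregs and 853 CPM in CD8 T cells and was lower in 12 of 12 tumours (log2 difference -2.31, SE 0.27, edgeR adjusted p = 3.03e-06). Gzmb was higher in Tregs in 10 of 12 tumours, at a median of 771 against 433 CPM (0.91, SE 0.20, edgeR adjusted p = 0.00307). Ly6c2, a surface antigen of memory and effector CD8 T cells, had the largest fold downwards, at 0 to 180 CPM in Tregs against 370 to 2134 CPM (-4.11, edgeR adjusted p = 8.76e-10). Ctsw, cathepsin W of cytotoxic cells (-3.13), Ccl5, a chemokine of effector T cells (-2.47), Ms4a4b (-1.78), Emb (-1.47), Hist1h2ap (-1.17), a histone gene, and Dusp2 (-1.16), a phosphatase, completed the 8 lowest. Ctsw was at 0 to 67.4 CPM in Tregs and 128 to 580 CPM in CD8 T cells. It passed the count filter through its CD8 sums alone.

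No tested cell cycle gene passed, where 13.6% of all genes passed against CD8 T cells and 2.46% against conventional CD4 T cells. With so few genes tested, this does not set the list apart from all genes. Mki67 had medians of 137 CPM in Tregs and 148 CPM in CD8 T cells (log2 difference -0.21, edgeR adjusted p = 0.714), with 7 cell cycle genes tested against CD8 T cells and 2 against conventional CD4 T cells. Top2a, a topoisomerase of dividing cells, had medians of 109 and 245 CPM in Tregs and CD8 T cells and was lower in Tregs in 11 of 12 tumours (-0.76, edgeR adjusted p = 0.0673). Of the 7 genes, 2 had positive differences, and the median was -0.30. Interferon response genes gave 1 call of 4 tested against CD8 T cells, Ifi27l2a (1.41), and none of 4 against conventional CD4 T cells. The shares over all genes were 13.6% and 2.46%, so these counts do not set this list apart either. Of 8 early response genes tested in each comparison, 1 passed against CD8 T cells, Nr4a1, an orphan nuclear receptor (0.82), a share near the 13.6% called over all genes. That call was lost in 4 of 11 alternatives, and none of the 8 passed against conventional CD4 T cells.

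**Figure D3:**
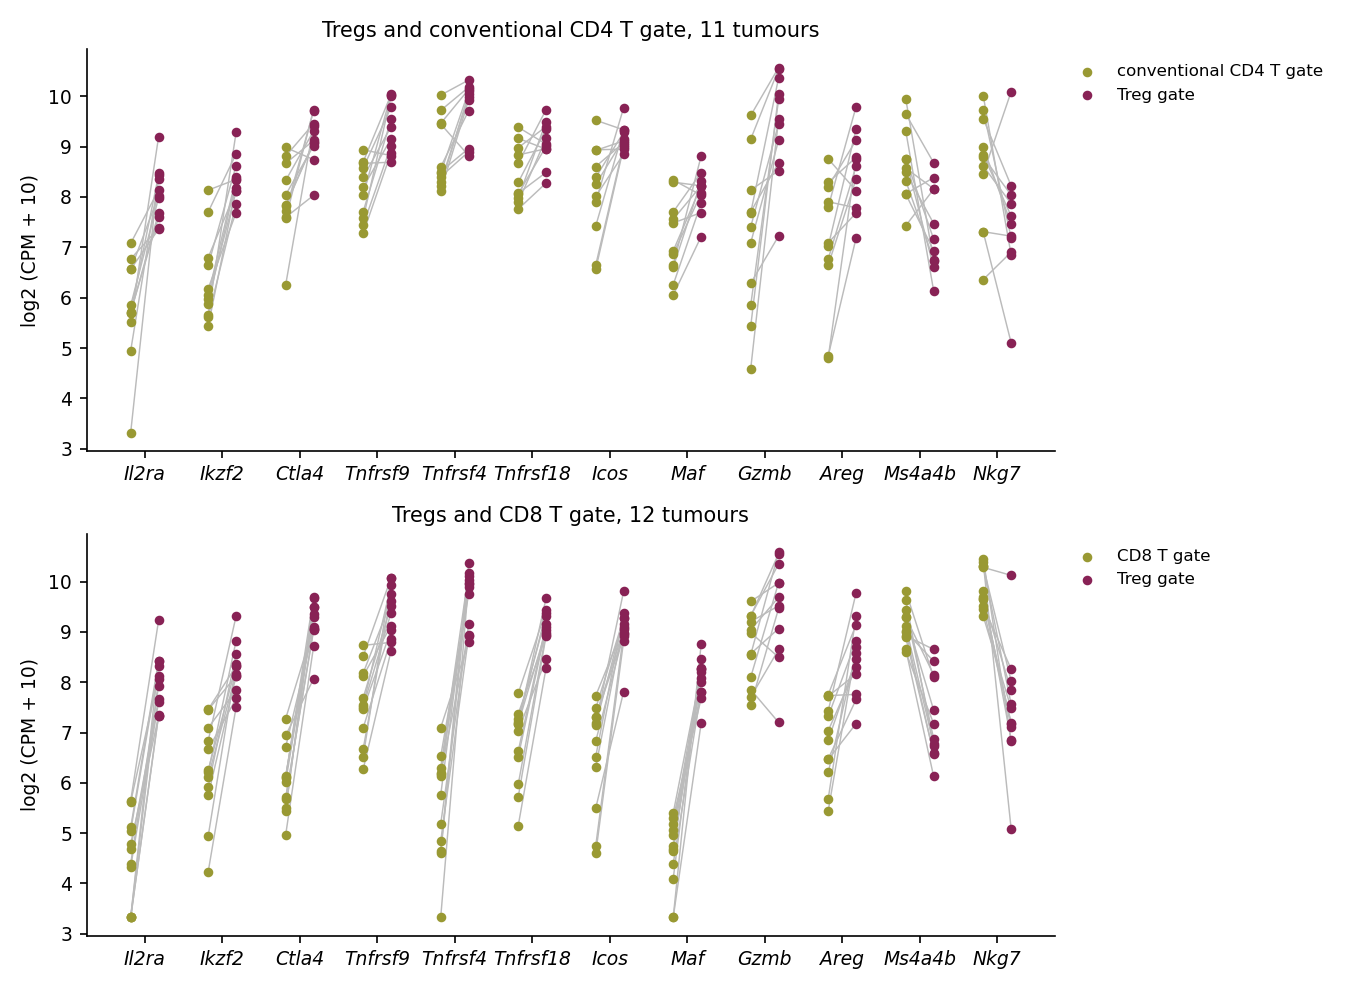
Expression of 12 genes as log2 (CPM + 10) in Tregs and in conventional CD4 T cells of 11 tumours (top) and in Tregs and CD8 T cells of 12 tumours (bottom), with lines joining the 2 gates of a tumour. Il2ra and Ikzf2 are higher in Tregs in all tumours of both comparisons, and Nkg7 is lower in Tregs than in CD8 T cells in 12 of 12 tumours.

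Finally, Tregs of KO tumours were compared with Tregs of control tumours. No gene passed: 0 of 994 (0%) in edgeR and 0 in DESeq2, with 92 genes at an unadjusted edgeR p under 0.05. The fit held 5 control and 8 KO tumours with 10 to 29 Tregs each, in which 1 UMI was worth 8.02 to 36.6 CPM. All 5 control tumours were of day 16, and day was a term of the fit, so the fitted group difference rests on 2 KO tumours of day 16, both of line 24. The other 6 KO tumours, of days 6 and 10, entered the means below and the estimate of spread.

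Core Treg genes overlapped between the groups. Il2ra was at 152, 267, 154, 334 and 155 CPM in the control tumours and at 185 to 585 CPM in the KO tumours (median 266 CPM). Its log2 difference was 1.05 (SE 0.40, edgeR adjusted p = 0.456). Ikzf2 ran from 176 to 448 CPM in controls and from 198 to 622 CPM in KO tumours (0.49, edgeR adjusted p = 0.719). Line 24 day 16 B, 1 of the 2 KO tumours of day 16, held the highest Il2ra, Ikzf2 and Icos values, and without it the difference was 0.56 for Il2ra and -0.0425 for Ikzf2, and 33 genes in place of 92 had an unadjusted p under 0.05. Mitochondrial transcripts moved with it: mt-Cytb was at 6549 CPM there, at 1320 to 2679 CPM in control Tregs and at 1586 to 2628 CPM in the other KO tumours (log2 difference 1.29, SE 0.29, edgeR adjusted p = 0.148), and their part in the differences was not tested. Ctla4 ran from 414 to 809 CPM and from 256 to 837 CPM (-0.49), Tnfrsf9 from 387 to 862 CPM and from 445 to 1071 CPM (0.20), and Gzmb from 397 to 951 CPM and from 137 to 1527 CPM (-0.10). The largest positive differences among identity genes were those of Rgs1, a regulator of G-protein signalling, and Il2rb. Rgs1 ran from 22 to 207 CPM in controls and from 151 to 659 CPM in KO tumours (1.64, SE 0.55, edgeR adjusted p = 0.343), and Il2rb from 70.3 to 167 CPM and from 129 to 512 CPM (1.601, SE 0.52, edgeR adjusted p = 0.31). Both sets of values overlapped. Without line 24 day 16 B the difference was 0.58 for Rgs1, and Il2rb was not tested there. Over the 9 identity genes tested, 4 differences were positive and the median was -0.19 on the log2 scale, against -0.01 over all genes. All 6 tissue and effector genes tested had positive differences, against 49.2% of all genes, with a median of 0.26 and no call. None of the 5 cell cycle genes (median -0.53) and none of the 3 suppressive molecules (median -0.43) tested had a positive difference. These signs rest on the same 2 KO tumours.

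Icos was at 489, 317, 220, 492 and 448 CPM in controls and at 487 to 878 CPM in KO tumours, and the ranges met at the edge (log2 difference 0.72, SE 0.31, edgeR adjusted p = 0.456). The values of the groups did not overlap for 4 of 994 genes (0.402%), none of them a list member. One was Vps37b, a subunit of the ESCRT-I sorting complex, at 50.1 to 123 CPM in controls and 203 to 366 CPM in KO tumours (1.68, SE 0.41, edgeR adjusted p = 0.148). It was singled out after its values were seen. With tumours of at least 5 Tregs, an alternative also chosen after seeing the data (7 control and 15 KO tumours), Vps37b was the 1 gene that passed (1.62, edgeR adjusted p = 0.0264).

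Of the antigen-presenting cell markers, Cd74, H2-Aa and H2-Ab1 were tested, and their values were uneven between tumours. H2-Aa was at 72.2, 250, 0, 0 and 17.2 CPM in control Tregs and between 0 and 1500 CPM in KO Tregs. Its log2 difference was 3.21 (SE 1.28, edgeR adjusted p = 0.456), and H2-Ab1 differed by 3.34 (edgeR adjusted p = 0.376) and Cd74 by 1.79 (edgeR adjusted p = 0.556). H2-Aa and Cd74 turned to the opposite sign without 1 tumour, line 24 day 16 B, at -1.71 for H2-Aa and -0.92 for Cd74. That tumour had the fewest Tregs of the fit, 10, and the highest Cd74 and H2-Aa values, 3659 and 1500 CPM. The part of antigen-presenting cells in these values was not tested.

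**Figure D4:**
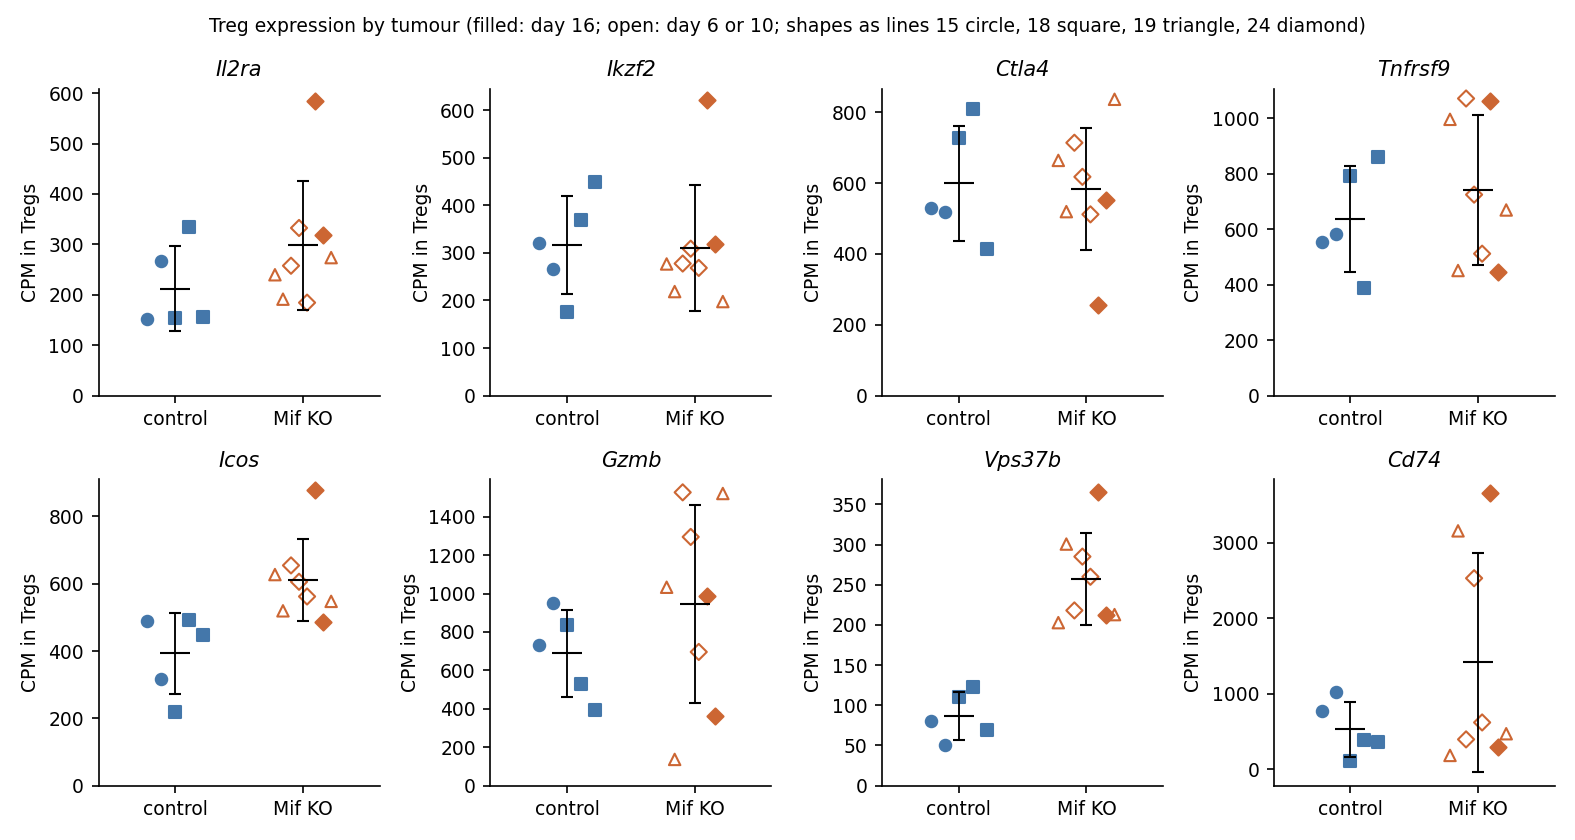
Expression in Tregs (CPM, vertical axes from 0 or below where an error bar reaches below 0) of 8 genes in 5 control and 8 KO tumours with at least 10 Tregs, 1 point per tumour, with bars at the mean and error bars of 1 SD. Il2ra, Ikzf2, Ctla4, Tnfrsf9, Gzmb and Cd74 overlap between the groups, and Vps37b runs from 50.1 to 123 CPM in controls and from 203 to 366 CPM in KO tumours.

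Leaving out the other KO tumour of day 16 (line 24 C) gave 30 genes that passed, with 1 KO tumour of day 16 left, assumed to vary like the rest. With day 16 alone and at least 5 Tregs (5 control and 6 KO tumours of all 4 lines), 1 of 741 genes passed, Dgat1, a triglyceride synthesis enzyme (log2 difference 2.07, edgeR adjusted p = 0.0168). With 1 sum per line 21 genes passed, where day and group cannot be told apart.

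Tregs of day 16 were also set against those of day 10, with group as a term. No gene of 954 (0%) passed in edgeR or DESeq2, and 45 had an unadjusted edgeR p under 0.05. The contrast rests on 5 KO tumours of day 10 and 2 of day 16, since no control tumour of day 10 had 10 Tregs. The 8 identity genes tested had a median log2 difference of -0.03, against 0.02 over all genes, and the 7 early response genes tested all had negative differences, with a median of -0.72 and no call. Mitochondrial transcripts had the opposite sign in that fit, for example mt-Cytb (1.21, edgeR adjusted p = 0.342) and mt-Atp8 (1.09, edgeR adjusted p = 0.342), and their part in these differences was not tested. The mt-Cytb median was 2119 CPM on day 10 and 1931 CPM on day 16, with the highest value, 6683 CPM, in line 24 day 16 B. Both KO tumours of day 16 were of line 24, while those of day 10 were of lines 19 and 24.

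The difference between KO and control in Tregs was compared with that in conventional CD4 T cells of the same 3 control and 8 KO tumours. Pooled over day 16, there were 0.756 cells of the conventional CD4 gate per Treg in controls and 4.83 in KO tumours. That gate requires a Cd4 UMI and the Treg gate does not, and only 26.4% of Tregs had one. These ratios therefore understate conventional CD4 T cells and do not give true cell proportions. Tregs with no Foxp3 UMI captured could weigh differently in the CD4 gate of each group, which was not tested. The interaction passed for 0 of 1599 genes (0%) in edgeR and 0 in DESeq2, with 68 at an unadjusted edgeR p under 0.05. For the 9 identity genes tested its median was 0.04 on the log2 scale, against -0.01 over all genes. All 3 control tumours were of day 16 and 6 of the 8 KO tumours of days 6 and 10, so group and day are mixed in this interaction. With the day of each gate as a term, an alternative chosen after seeing the data that rests on the 2 KO tumours of day 16, 0 genes passed in edgeR and 58 had an unadjusted p under 0.05.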

How the data were processed

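Live cells of hashtag-marked samples were read in 6 gene expression libraries with the 10x Genomics 5′ kit. Values deposited by the authors are unnormalized UMI counts in a matrix of 32285 gene rows and 10 hashtag rows, made with Cell Ranger 6.0.0 on build mm10 per the submitters' processing notes. A deposited sheet gave each hashtag a line, day and letter, and the group followed from the line. Hashtag counts were read from the same matrices.

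Cells had at least 300 genes, at most 15% mitochondrial UMIs, and a top hashtag of at least 20 counts and at least 3 times the second. Raw UMIs were summed per tumour and gate (at least 10 cells) and fitted in edgeR 4.0.16 (filterByExpr, TMM, quasi-likelihood test, Benjamini-Hochberg over all genes tested, threshold 0.05). CPM in the gene comparisons are scaled by TMM factors. The tumour was a term in comparisons of gates. Shares were compared by permutation, with 100000 resamples or exactly.

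Named genes were tested members of 18 lists other than the gate genes, plus the 8 largest folds each way of those called at a mean log2 CPM of 5 or more. For KO against control both KO line means also had to lie on 1 side of both control line means, and immunoglobulin and T-cell receptor segment genes were left out. Members and lists were chosen with earlier results of these data known. DESeq2 1.42.0 was an alternative, beside other gates, filters, scalings and left-out lines. In simulated data 97% of genes changed by 2 on the log2 scale were recovered in the KO fit (994 genes), 93% in the day fit (954 genes), 85% in the interaction (1599 genes) and 100% in the fits against conventional CD4 (976 genes) and CD8 T cells (1252 genes). That simulation changed 100 genes by 2 and 100 by 3 in each fit. It gave every gene the same dispersion and no tumour or day effects. It therefore does not measure how many changes would be found at the spread of the real genes. WT tumours, which the labels put in no group, entered no comparison. Intervals cover counting error only.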

Additional observations from a re-analysis of the deposited data

Results flagged for a closer look

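The change of the Treg share of CD8-negative T cells differed between the groups. From day 10 to day 16 the KO change minus the control change was -8.51 percentage points (permutation p = 0.0447), and from day 6 to day 16 it was -9.23 points (permutation p = 0.0424).

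Single tumours lay far from the rest of their group for some genes in Tregs, among 50 groups of tumours examined, where chance marks about 1 in 20. In KO tumours, line 24 day 16 B was the highest for Icos (878 CPM), Ikzf2 (622 CPM), Il2ra (585 CPM), Nkg7 (1098 CPM) and the mitochondrial gene mt-Cytb (6549 CPM). Its values came from 10 Tregs and 28045 UMIs. In control tumours, line 15 day 16 C was the highest for H2-Aa, at 250.3 CPM.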

How the results depend on the processing

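The lower Treg share of CD8-negative T cells in KO tumours kept its sign and passed in each alternative run over tumours, from -12.6 to -3.88 points. Over the 4 line means it was -6.67 points with an exact permutation p of 0.333, the smallest possible. The difference in the share of all cells was -0.0158 points (permutation p = 0.614) with 2 Foxp3 UMIs required. It passed with Ptprc required and no macrophage UMIs (0.137) and with a stricter cell filter (0.132), and ran from 0.0248 to 0.229 points over left-out lines. The log2 ratio to CD8 T cells missed the threshold in thinned cells (-1.11), with Ptprc required (-1.14) and in mixed libraries (-1.21), and ran from -1.78 to -0.96 over left-out lines. The difference between the latest and earliest day missed it in thinned cells (3.50) and with Ptprc required (3.59, from day 10), and ran from 3.43 to 8.52 points over left-out lines.

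For KO against control, 23 genes passed with no count filter, 21 with 1 sum per line, 1 on day 16 alone (Dgat1), 1 with at least 5 cells (Vps37b), 1 in thinned cells (Vim, log2 difference -1.07), 4 without likely doublets (Aldoa, Eno1, Gapdh and Zfp36l1, all lower) and 1 with the stricter cell filter (Vps37b), the last 3 with at least 5 cells. Over left-out lines and tumours the count was 0 to 30. Between days 10 and 16 it was 1 with no filter, and 0 to 10 over left-out lines and tumours, with 10 without line 24 day 16 C. Against conventional CD4 T cells it was 122 with no filter, 12 with at least 20 cells, 10 with Ptprc required and 3 to 30 over left-out lines. DESeq2 gave 28 calls, among them all 24. Against CD8 T cells it was 360, 62 and 102 to 166 with no filter, with Ptprc required and over left-out lines. The interaction gave 19 with no filter, 31 with at least 20 cells (1 control and 2 KO tumours), 8 with Ptprc required, 3 in thinned cells, 1 without likely doublets, 2 with the stricter cell filter and 0 to 2 over left-out lines. The causes were not tested.

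In Tregs, the KO difference turned for Il2ra (-0.25) in mixed libraries, for Ikzf2 in mixed libraries (-0.0498), with library as a term (-0.0043) and without likely doublets at 5 cells (-0.0809), for Cd74 (-0.91) and H2-Aa (-1.70) with a stricter hashtag call, and for mt-Cytb with Ptprc required (-0.54) and in mixed libraries (-0.20). The KO fits with Ptprc required, in mixed libraries and without control line 18 used tumours with at least 5 Tregs, since a group had under 3 tumours otherwise, so both choices changed there. Over left-out lines and tumours the difference ran from -0.0425 to 0.958 for Ikzf2, from -0.92 to 2.73 for Cd74 and from -1.71 to 6.34 for H2-Aa, each lowest without line 24 day 16 B.

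Requiring 2 Foxp3 UMIs left too few tumours for any gene fit. The KO fit with at least 20 cells, in thinned cells, without likely doublets, with the stricter cell filter or without line 24 could not be estimated, because too few tumours remained or day and group coincided. The same held for the day fit in these settings and with Ptprc required. No share between days could be had from the mixed libraries alone. The KO and control lines share no replicate number, and nothing says that the letters of tumours pair them. The comparisons of gates had the tumour as a term. The KO fit was also run with library as a term (0 calls in edgeR, with 64 genes at an unadjusted p under 0.05). Only 1 library, a mixed one, held both groups in that fit. Its control tumours were of day 16 and its 1 KO tumour was line 19 day 10 C. The group difference with library as a term rests on that KO tumour. Tregs numbered 0 to 29 per tumour, which limits every value per tumour.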

Other observations

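The 3 tumours marked WT, which the labels put in no group, held 4 Tregs among 86 CD8-negative T cells on day 6 (4.65%), 2 among 123 on day 10 (1.63%) and 6 among 133 on day 16 (4.51%). Their log2 ratio of Tregs to CD8 T cells was -1.47, -3.35 and -4.48 on these days.

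Mif itself was counted in Tregs, at 1780 CPM over control and 989 CPM over KO tumours pooled (1008 and 746 UMIs). In the fit over tumours the log2 difference was -0.37 (SE 0.46, edgeR adjusted p = 0.888).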
